A study of Mus musculus with 22 samples.

Results

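The mouse genes that write, maintain, remove and read DNA methylation were followed through oocyte growth and early cleavage, with and without maternal Setd2. These are 10 genes: the methyltransferases Dnmt1, Dnmt3a and Dnmt3b, the cofactor Dnmt3l, the Dnmt1 recruiter Uhrf1, the dioxygenases Tet1, Tet2 and Tet3, the thymine DNA glycosylase Tdg and the methyl-CpG reader Mbd1. They were chosen by symbol, and all 10 were found among the 22592 gene symbols of each of 4 deposited tables. Setd2 encodes the enzyme that places 3 methyl groups on lysine 36 of histone H3, and the study asked how this mark relates to other marks and to transcription in the oocyte and in the embryo that inherits it. RNA was measured by Smart-seq2, a full-length method for small samples, in 22 libraries, and values are FPKM (fragments per kilobase of transcript, scaled to the mapped fragments of the library).

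Each Setd2 stage had 2 knockout and 2 control libraries. Growing oocytes of 20 to 30 µm came from females of postnatal day 7 (P7) and are labelled Setd2-/- and Setd2+/-. Full-grown oocytes were collected from knockout and control females of 8 weeks, 48 h after PMSG, a gonadotropin that drives follicle growth. Zygotes were collected 30 h after the ovulation trigger hCG, also from females of 8 weeks. The 48 h and 8-cell embryos are given the same female age. The 48 h embryos are labelled 1-cell for the knockout and 2-cell for the control, so that genotype and cell stage cannot be told apart there. The 8-cell embryos are labelled Setd2-/- and Setd2+/- and were made by moving a spindle with its chromosomes between oocytes lacking maternal Setd2 (Setd2mNull) and control oocytes, followed by sperm injection. The labels do not say which way the transfer went in each group. For Dnmt3l, a knockout and a control library of full-grown oocytes were given, 1 of each, in columns named as merged. These oocytes too came from females of 8 weeks, 48 h after PMSG. The promoter that drove Cre and the number of cells or females per library are not given in the sources used here, and nothing says that replicate libraries came from separate females, so each p-value measures only the spread between these libraries.

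DNMT1, brought to replicating DNA by UHRF1, copies methylation to the new strand. DNMT3A and DNMT3B add methylation to unmethylated sites, and DNMT3L, which has no catalytic activity of its own, stimulates them. In mouse oocytes DNMT3A with DNMT3L sets the maternal imprints during growth, and the oocyte form of DNMT1 is stored for the embryo. The TET enzymes oxidise 5-methylcytosine, TDG removes oxidised forms of it, and TET3 is the TET enzyme known to act in the mouse zygote. Mouse oocytes are known to start Dnmt1 upstream of the start used in other cells, and to start Dnmt3l inside the neighbouring gene Aire.

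Promoter sequence was available for 9 of the 10 genes, all but Mbd1, in 16 windows, and 4 of the genes had several annotated starts. Of the set, Dnmt1, Dnmt3l, Uhrf1 and Tet3 stood highest in the knockout over the control at 48 h on the log2 scale. The windows below are the 250 bases upstream of annotated starts of these 4 genes, from RefSeq on GRCm38.p6. For Dnmt1 and Dnmt3l they show the most upstream annotated start beside the next one, and for Uhrf1 the downstream of its starts. Capitals mark 2 motifs on either strand: the E-box CANNTG, which reads the same on both strands, and CCAAT or its complement ATTGG. Of the 32841 windows of the same length in the table, 66.2% held CANNTG and 33.9% held CCAAT, and the median window held 6 CpG. These motifs were chosen after the sequences were seen.
Dnmt1 first start: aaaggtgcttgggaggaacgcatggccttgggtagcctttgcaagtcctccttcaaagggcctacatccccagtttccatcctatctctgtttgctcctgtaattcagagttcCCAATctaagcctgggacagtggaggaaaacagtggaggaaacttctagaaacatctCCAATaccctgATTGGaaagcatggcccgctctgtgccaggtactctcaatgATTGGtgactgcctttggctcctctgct
Dnmt1 second start: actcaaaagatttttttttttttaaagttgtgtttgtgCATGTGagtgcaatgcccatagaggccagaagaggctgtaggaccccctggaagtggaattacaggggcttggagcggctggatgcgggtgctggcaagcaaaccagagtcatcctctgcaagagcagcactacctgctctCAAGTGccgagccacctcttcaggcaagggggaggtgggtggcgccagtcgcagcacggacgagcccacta
Dnmt3l first start: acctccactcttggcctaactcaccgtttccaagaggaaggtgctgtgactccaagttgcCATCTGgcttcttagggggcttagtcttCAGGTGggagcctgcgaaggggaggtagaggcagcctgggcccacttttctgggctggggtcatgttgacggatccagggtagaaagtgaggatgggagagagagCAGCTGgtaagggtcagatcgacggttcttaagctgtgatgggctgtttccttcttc
Dnmt3l second start: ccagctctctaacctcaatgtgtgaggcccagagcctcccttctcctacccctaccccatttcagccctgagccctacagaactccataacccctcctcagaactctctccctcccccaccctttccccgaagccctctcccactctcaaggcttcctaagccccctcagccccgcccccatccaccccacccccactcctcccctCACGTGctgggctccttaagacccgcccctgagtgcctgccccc
Uhrf1 second start: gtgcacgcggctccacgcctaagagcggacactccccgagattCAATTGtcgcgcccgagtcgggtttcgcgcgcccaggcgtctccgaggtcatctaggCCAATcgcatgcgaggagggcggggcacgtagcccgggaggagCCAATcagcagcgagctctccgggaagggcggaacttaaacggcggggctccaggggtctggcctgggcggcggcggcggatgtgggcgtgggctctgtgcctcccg
Tet3 start: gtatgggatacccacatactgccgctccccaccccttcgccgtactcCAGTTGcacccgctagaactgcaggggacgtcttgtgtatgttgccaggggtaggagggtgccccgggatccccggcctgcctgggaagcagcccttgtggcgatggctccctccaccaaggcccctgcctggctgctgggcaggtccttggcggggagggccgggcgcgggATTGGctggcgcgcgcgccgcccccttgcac
The Dnmt1 window at chr9:20959889-20960138 (minus strand) held 4 CCAAT, no CANNTG and 2 CpG. The second Dnmt1 start lies 6909 bases downstream, and its window at chr9:20952980-20953229 held 2 CANNTG, no CCAAT and 7 CpG. The first Dnmt3l start lies inside Aire, and its window at chr10:78042037-78042286 (plus strand) held 3 CANNTG, no CCAAT and 5 CpG. The second Dnmt3l start is 7555 bases further on, with 1 CANNTG and 4 CpG in its window at chr10:78049592-78049841. The Dnmt1 start farthest downstream, 7265 bases from the first, has a window with 26 CpG, 3 CCAAT and 1 CANNTG, not printed here. The second Uhrf1 window at chr17:56304063-56304312 (plus strand) held 30 CpG, 2 CCAAT and 1 CANNTG, and the window of the first Uhrf1 start 10 CpG with 1 match to each motif. The Tet3 window at chr6:83441679-83441928 (minus strand) held 17 CpG with 1 match to each motif. No match to CANNTG overlapped a match to CCAAT in these 6 windows. A match is a run of letters only, and FPKM per gene do not say which start was used.

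Library size was estimated from genes with a single annotated transcript, taking their commonest low product of FPKM and transcript length as 1 fragment. This gave a rough size of 5.25 to 6.31 M fragments in growing oocytes, 9.12 to 22.9 M in full-grown oocytes, 3.02 to 3.31 M in zygotes, 3.31 to 4.79 M at 48 h, 6.31 to 7.59 M in 8-cell embryos and 8.32 to 10 M in the Dnmt3l pair. Between 8999 and 10554 genes reached 1 FPKM in a library. Setd2 itself had 0.968 and 0.927 FPKM in knockout full-grown oocytes, against 4.75 and 4.35 FPKM in controls, a call that was lost with any one of the 4 libraries left out (limma, adjusted p = 0.0102 with all and 0.0596 to 0.102 without one). In zygotes it had 1.31 and 1.73 FPKM in the knockout, against 12.1 and 8.85 FPKM in controls. At 48 h it had 1.42 and 1.74 FPKM in the knockout, against 53.2 and 43.0 FPKM in the control. At P7 Setd2 had 3.67 and 3.21 FPKM in the knockout, against 4.33 and 6.68 FPKM in the control (limma, adjusted p = 0.799). In 8-cell embryos it was alike, at 15.4 and 18.1 FPKM in the knockout and 18.2 and 17.1 FPKM in the control (limma, adjusted p = 0.934). The Setd2 level thus does not check the labels at these 2 stages, and knockout names the label alone for 8-cell embryos. The summed level of 11 oocyte markers was 19077 to 22788 FPKM in knockout and 23197 to 24009 FPKM in control full-grown oocytes. Granulosa markers, 10 in the list, from the cells that surround the oocyte, summed to at most 40.1 FPKM in the Setd2 libraries.

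**Figure D1:**
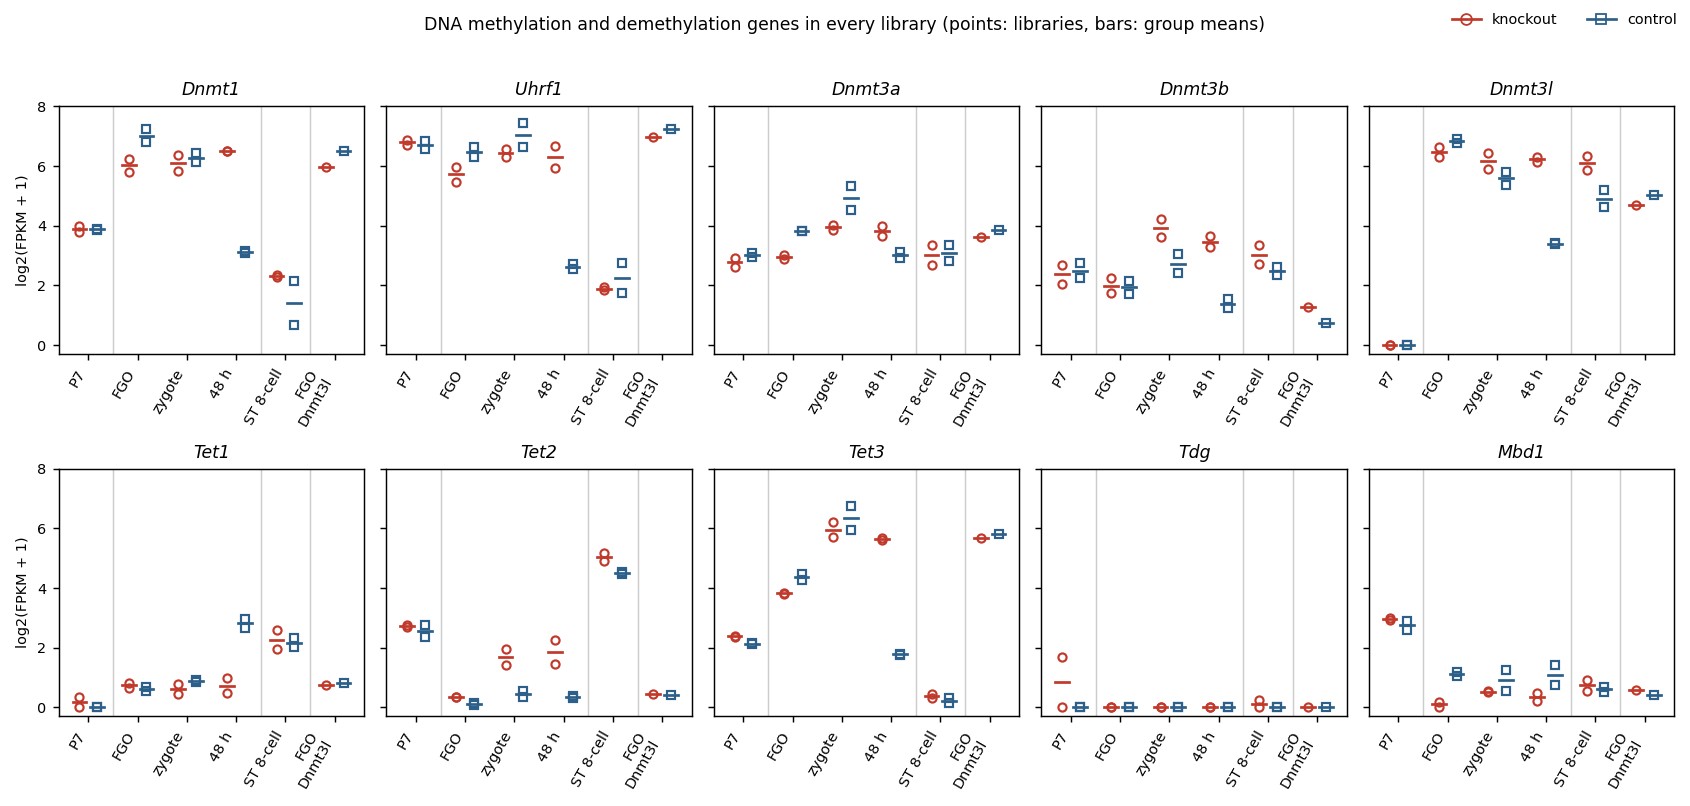
Level of each gene, as log2(FPKM + 1) on the vertical axis, in every library by stage, with knockout (red circles) left of control (blue squares) and short bars for the means. At 48 h Dnmt1, Uhrf1, Dnmt3l and Tet3 sit high in the knockout and low in the control, whereas Tet1 is high in the control alone. The last position in each panel is the single Dnmt3l pair.

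The maintenance pair had different histories. Uhrf1 was already abundant in growing oocytes, at 104 and 117 FPKM in the knockout and 94.6 and 114 FPKM in the control. Dnmt1 was low there, at 12.7 and 14.8 FPKM in the knockout and 13.47 and 13.96 FPKM in the control, and the highest Dnmt1 level, 149 FPKM, was in a control full-grown oocyte library. Both genes were low in the 2-cell control embryos at 48 h and in 8-cell embryos of both groups, where Dnmt1 spanned 0.610 to 4.13 FPKM and Uhrf1 2.37 to 5.78 FPKM. Growing oocytes, 8-cell embryos and the Dnmt3l pair come from tables of their own, so levels set across tables are given without a test.

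Among the de novo genes, Dnmt3l was listed at 0 in all 4 growing oocyte libraries, where 1 fragment would be worth 0.0870 to 0.105 FPKM. It reached 78.7 and 97.7 FPKM in knockout full-grown oocytes, against 107 and 118 FPKM in control full-grown oocytes. Dnmt3a was present in every library, between 5.19 FPKM in a growing oocyte library and 39.5 FPKM in a control zygote library. Dnmt3b ranged from 0.681 FPKM in the control of the Dnmt3l pair to 17.8 FPKM in a knockout zygote library. Dnmt3l shares 1664 bases with Aire on the opposite strand in GRCm38, and the kit and counting are not stated to use strand, so reads from the shared stretch cannot be told apart. Aire had at most 12.6 FPKM in any library.

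The leading TET gene differed by stage. In growing oocytes Tet2 made 54.9% to 63.5% of the summed TET level and Tet3 36.4% to 45.1%, over both groups. Tet3 made 92.6% to 93.9% of it in knockout full-grown oocytes, against 97.0% in both control libraries. In 2-cell control embryos Tet1 made 66.3% to 71.7%. In 8-cell embryos Tet2 made 84.7% to 91.7% in the knockout and 83.4% to 87.7% in the control, and Tet3 was under 1 FPKM in all 4 libraries. FPKM are scaled to transcript length, but how well levels compare between genes was not tested, so these shares describe FPKM only.

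**Figure D2:**
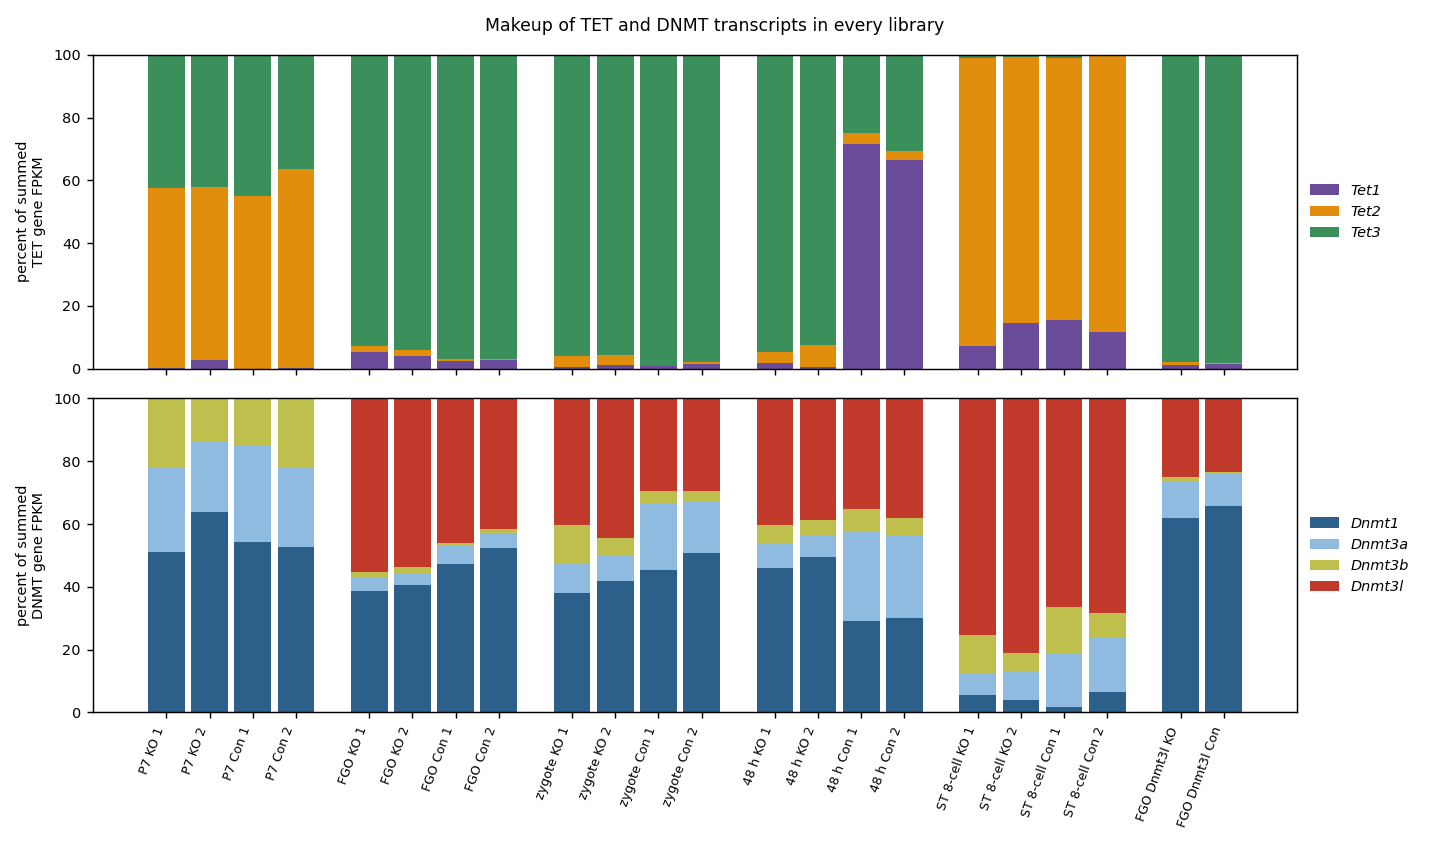
Share of the summed FPKM (percent, vertical axis) of the TET genes (top) and of the DNMT genes with Dnmt3l (bottom) in each library, with knockout left of control in each stage. Tet3 makes 92.3% or more of the TET level in full-grown Setd2 oocytes, in zygotes and in the 48 h knockout, and Tet1 leads in the 48 h control. Dnmt3l is absent from the growing oocyte bars and makes 75.3% to 81.0% of the DNMT level in knockout 8-cell embryos, against 66.5% to 68.3% in control 8-cell embryos.

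Of the 2 remaining genes, Mbd1 was low after growth and Tdg was near 0 in nearly all libraries, most growing oocyte libraries included. Mbd1 had 5.03 to 6.95 FPKM in growing oocytes and at most 1.68 FPKM in every other library. Tdg was under 0.001 FPKM in 20 of 22 libraries and at exactly 0 in 9 of them. It had 2.20 FPKM in 1 knockout growing oocyte library and 0.198 FPKM in 1 knockout 8-cell library, and it never passed the filter for testing. Values under 0.0125 FPKM are less than 1 fragment for this gene in any library. A pair of near-identical copies exists, Tdg-ps at 98.7% and Gm9855 at 99.2% identity over their aligned length, so the authors' counting could have split reads between them and the Tdg values are uncertain. Gm9855 had 0.484 and 1.90 FPKM in knockout and 1.89 and 1.92 FPKM in control growing oocytes, and at most 0.137 FPKM in the other libraries. Reads given to another copy were not tested as a source of the low Tdg values.

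In growing oocytes the knockout left none of these genes changed by the test. Of the 10 genes 7 could be tested, and Dnmt3l, Tet1 and Tdg were too low. The limma model on log2(FPKM + 1) called 0 of the 7 at an adjusted p under 0.05, with adjusted p from 0.928 to 0.999, and 0 at an unadjusted p under 0.05. Over all 10794 genes tested it called 0.0834%, and 8.04% had an unadjusted p under 0.05. Dnmt3a had 6.65 and 5.19 FPKM in the knockout, against 7.58 and 6.83 FPKM in the control. The groups did not overlap, but the difference of -0.25 ± 0.35 (SE, log2) was smaller than its standard error (limma, adjusted p = 0.928). Tet3 and Mbd1 did not overlap in the other direction, with Tet3 at 4.31 and 4.16 FPKM in the knockout and 3.44 and 3.35 FPKM in the control. Of all genes 15.9% lay wholly higher and 21.5% wholly lower in the knockout, so 2 and 1 of 7 are not far from the background.

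In full-grown oocytes Dnmt1 and Mbd1 were lower in the knockout. Dnmt1 had 55.2 and 73.9 FPKM in the knockout, against 111 and 149 FPKM in the control. Both knockout libraries lay below both controls. The log2 change was -0.995 ± 0.24 (SE), or -0.81 relative to the median of all genes, which itself stood at -0.19 (limma, adjusted p = 0.0368). Mbd1 had 0.0206 and 0.146 FPKM in the knockout, against 1.07 and 1.26 FPKM in the control, with the lowest library resting on about 1.4 fragments (log2 change -0.9996 ± 0.27, -0.81 relative to the median, limma adjusted p = 0.0496). The added 1 FPKM makes this change an understatement for so low a gene, and with a pseudocount of 0.1 it was -2.87.

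These 2 of 9 tested genes were the calls in that comparison, where 4.89% of all 12199 genes were called lower, 2.02% higher and 6.92% in either direction. After rescaling by median ratios the calls over all genes were 389 higher and 320 lower, against 247 higher and 597 lower as deposited. No gene of the set was called higher. Both calls were lost when any one of the 4 full-grown oocyte libraries was left out, with adjusted p from 0.0770 to 0.297 for Dnmt1 and 0.138 to 0.293 for Mbd1, and without a filter on low values and after rescaling by median ratios, where after rescaling adjusted p was 0.0566 and 0.0690 (limma). Dnmt3a, Dnmt3l, Uhrf1 and Tet3 also lay lower in both knockout libraries than in both controls without passing the test. Dnmt3a had 6.40 and 7.15 FPKM in the knockout, against 13.2 and 13.1 FPKM in the control. Tet2 lay wholly higher, at 0.287 and 0.280 FPKM in the knockout and 0.104 and 0.0643 FPKM in the control. Of all genes 46.3% lay wholly lower and 18.8% wholly higher in the knockout here. Granulosa markers summed to 29.7 to 34.5 FPKM in the knockout and 36.7 to 40.1 FPKM in the control, with Amh, Foxl2 and Hsd3b1 at 0 in the knockout. Of 6 granulosa markers that could be tested, limma called 3 lower and 1 higher in the knockout. The part of these markers in the result was not tested. RNA was measured in bulk, so fewer cells of a type and less RNA per cell cannot be told apart.

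In zygotes 3 genes were called: Dnmt3b and Tet2 higher and Dnmt3a lower in the knockout. Tet2 had 2.84 and 1.66 FPKM in the knockout, against 0.263 and 0.453 FPKM in the control. Every knockout library exceeded every control library (log2 change 1.24 ± 0.27, limma adjusted p = 0.00599). With a pseudocount of 0.1 the Tet2 change was 2.34, since the added 1 FPKM compresses low levels. Dnmt3b had 17.8 and 11.4 FPKM in the knockout, against 7.26 and 4.32 FPKM in the control, again without overlap (log2 change 1.205 ± 0.33, limma adjusted p = 0.0194). For Dnmt3a the knockout values were 13.7 and 15.1 FPKM, against 39.5 and 22.1 FPKM in the control, where the controls themselves lay far apart (log2 change -0.99 ± 0.27, limma adjusted p = 0.0187).

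The 3 calls among 9 tested genes stand beside 31.6% of all 12199 genes called in that comparison, 18.5% higher and 13.1% lower, so the share was near the background. Uhrf1, Tet1 and Mbd1 lay wholly lower in the knockout without passing the test. For Mbd1 the gap was under the worth of 1 fragment, with 0.456 FPKM in knockout replicate 2 and 0.471 FPKM in control replicate 2. In those libraries 1 Mbd1 fragment was worth about 0.0770 and 0.0845 FPKM. Of all genes 32.7% lay wholly higher and 28% wholly lower. The Tet2 call was kept with each library left out. The Dnmt3b call was lost without control replicate 2 or knockout replicate 1 (limma, adjusted p = 0.116 and 0.101), and that of Dnmt3a without control replicate 1 or without either knockout library (limma, adjusted p = 0.134, 0.0594 and 0.0530) or with zygotes fitted alone (limma, adjusted p = 0.0598). Dnmt3l had 59.0 and 86.2 FPKM in the knockout and 55.1 and 40.0 FPKM in the control, without overlap, and did not pass the test (log2 change 0.59 ± 0.24, limma adjusted p = 0.0788), though without knockout replicate 1 it did (log2 change 0.86, limma adjusted p = 0.0232). Dnmt1 overlapped, at 55.7 and 81.2 FPKM in the knockout and 85.02 and 68.62 FPKM in the control. The summed oocyte markers were 16135 to 17254 FPKM in knockout zygotes and 6555 to 6908 FPKM in control zygotes, and their part in these differences was not tested.

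**Figure D3:**
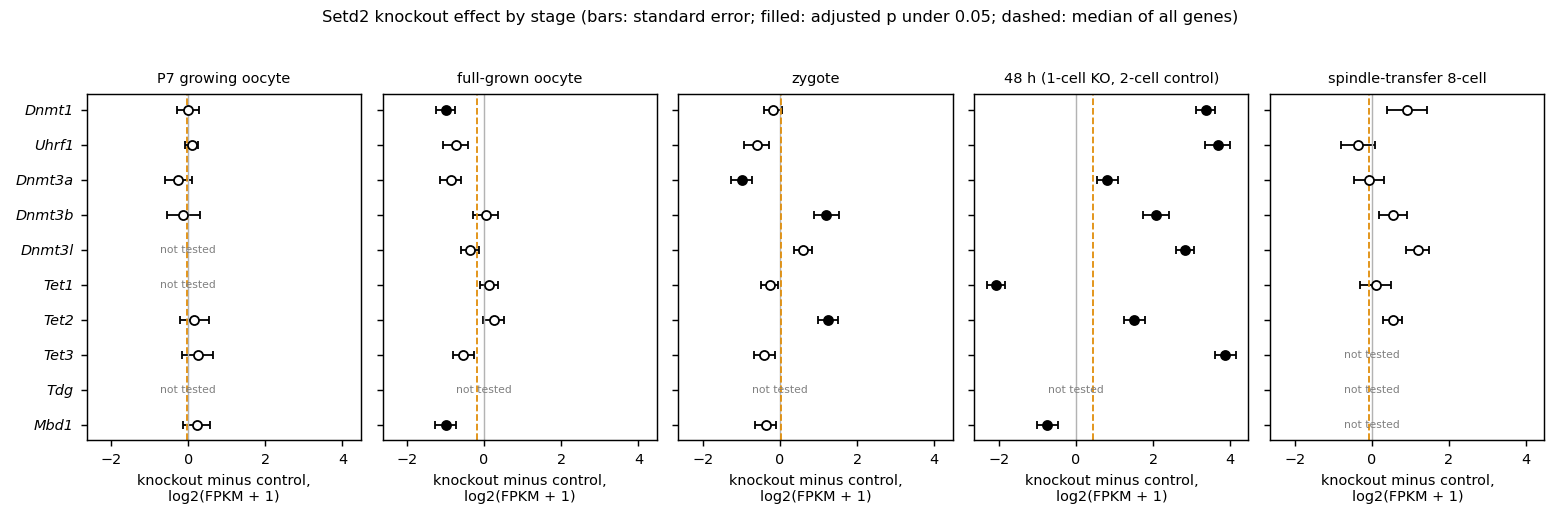
Knockout minus control on the log2(FPKM + 1) scale (horizontal axis, standard error as bars) for each gene at each stage, with filled points called at an adjusted p under 0.05 and the dashed line at the median of all genes. Calls number 0, 2, 3, 9 and 0 from left to right, and at 48 h the changes run from -2.08 for Tet1 to 3.87 for Tet3.

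From full-grown oocyte to zygote, Tet3 and Dnmt3a rose in both genotypes. In the knockout, Tet3 had 73.2 and 50.9 FPKM in zygotes against 13.0 and 13.4 FPKM in full-grown oocytes (log2 change 2.13 ± 0.27, limma adjusted p = 0.00187). In the control it had 108 and 61.1 FPKM in zygotes against 18.2 and 21.0 FPKM in full-grown oocytes (log2 change 2.00 ± 0.27, limma adjusted p = 0.000302). No zygote library overlapped the oocyte libraries of its genotype in the same deposited table. Tables differed at the oocyte stage, since the full-grown control of the Dnmt3l pair had 55.4 FPKM of Tet3. Its Dnmt3l level was 31.7 FPKM, against 107 and 118 FPKM in the Setd2 full-grown controls. The source of this difference between tables was not tested. Dnmt3a changed by 0.99 ± 0.27 on the log2 scale in the knockout (limma adjusted p = 0.0317) and 1.11 ± 0.27 in the control (limma adjusted p = 0.00763). The call in the knockout was lost with any one library left out, after rescaling and without a filter on low values, and that in the control without zygote replicate 1 (limma, adjusted p = 0.0617). The median of all genes was 0.09 in the knockout step, and relative to it Tet3 and Dnmt3a changed by 2.04 and 0.90.

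Other genes passed in 1 genotype. Dnmt1 and Dnmt3l were lower in control zygotes than in control full-grown oocytes, by -0.74 ± 0.24 and -1.24 ± 0.24 (log2, limma adjusted p = 0.0307 and 0.00196). Dnmt3b and Tet2 were higher in knockout zygotes than in knockout full-grown oocytes, by 1.95 ± 0.33 and 1.32 ± 0.27 (log2, limma adjusted p = 0.00451 and 0.00923). The Dnmt1 call was lost without a filter on low values and without control full-grown oocyte replicate 2 or control zygote replicate 2, and those of Dnmt3b and Tet2 without knockout full-grown oocyte replicate 1. With a pseudocount of 0.1 the Tet2 change was 2.57. The Tet2 call was lost as well without knockout full-grown oocyte replicate 2 or knockout zygote replicate 1. The counts were 4 higher and 0 lower of 9 in the knockout, where 12.6% of all genes were called higher, 5.1% lower and 17.7% in either direction. After rescaling the calls over all genes in the knockout step were 958 higher and 1149 lower, against 1532 higher and 622 lower as deposited. In the control step the counts were 2 higher and 2 lower of 9. Over all genes in that step, 18.5% were called higher, 24% lower and 42.5% in either direction. The difference between the 2 steps itself gave no call among these genes (limma, adjusted p from 0.103 to 0.902, 4 of 9 at an unadjusted p under 0.05), against 9.39% of all genes called and 24.9% at an unadjusted p under 0.05. A change that passed in 1 genotype is thus not shown to differ from the other.

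At 48 h the genes of DNA methylation maintenance, de novo methylation and Tet3 stood higher in the knockout, and Tet1 and Mbd1 lower. Dnmt1 had 89.6 and 88.7 FPKM in the 1-cell knockout embryos, against 7.89 and 7.59 FPKM in the 2-cell control embryos. Uhrf1 had 100 and 60.4 FPKM in the knockout, against 5.58 and 4.81 FPKM in the control. Tet3 had 47.9 and 50.6 FPKM in the knockout, against 2.35 and 2.50 FPKM in the control. All 3 were far higher in every knockout library, with log2 changes of 3.37 ± 0.24, 3.67 ± 0.32 and 3.87 ± 0.27 (limma, adjusted p = 3.4e-07, 1.4e-06 and 2.8e-07).

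Dnmt3l had 78.5 and 69.4 FPKM in the 48 h knockout, against 9.52 and 9.61 FPKM in the 48 h control (log2 change 2.82 ± 0.24, limma adjusted p = 1.1e-06). Dnmt3b had 11.5 and 8.76 FPKM in the knockout, against 1.93 and 1.36 FPKM in the control (2.07 ± 0.33, limma adjusted p = 0.000179). Tet2 was also higher, at 1.74 and 3.80 FPKM in the knockout against 0.308 and 0.237 FPKM in the control (1.51 ± 0.27, limma adjusted p = 0.000344). Tet1 went the other way, at 0.980 and 0.397 FPKM in the knockout, against 6.72 and 5.39 FPKM in the control (-2.08 ± 0.23, limma adjusted p = 9.4e-06). Mbd1 was lower as well, at 0.391 and 0.153 FPKM in the knockout against 1.68 and 0.671 FPKM in the control (-0.74 ± 0.27, limma adjusted p = 0.0269).

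All 9 tested genes were called, 7 higher and 2 lower, where 43.2% of all 12199 genes were called higher, 30.6% lower and 73.8% in either direction, and the median of all genes stood at 0.43. Relative to that median the changes of Dnmt1, Dnmt3l, Uhrf1, Tet3 and Tet1 were 2.94, 2.39, 3.24, 3.44 and -2.51. Rescaling by median ratios gave 4468 calls higher and 4530 lower over all genes, against 5270 higher and 3727 lower as deposited. The Dnmt3a change, 0.81 ± 0.27 (limma, adjusted p = 0.0193) from 14.7 and 11.7 FPKM in the knockout against 7.61 and 6.58 FPKM in the control, was 0.38 relative to the median and lost its call after rescaling (limma, adjusted p = 0.220) and without control replicate 2 or knockout replicate 1. Mbd1 lost its call without control replicate 1 or knockout replicate 2 (limma, adjusted p = 0.320 and 0.129) and without a filter on low values (limma, adjusted p = 0.0540). Oocyte markers summed to 14660 to 17973 FPKM in the knockout and 238.9 to 243.1 FPKM in the control, and 5 markers of the 2-cell embryo found in the table, of 6, to 6.11 to 31.6 FPKM in the knockout and 106 to 133 FPKM in the control. All 9 genes lay wholly on one side, as did 51.3% of all genes higher and 35.9% lower. With a pseudocount of 0.1 the Tet2 and Mbd1 changes were 2.85 and -1.73. Genotype and cell stage cannot be told apart in these values.

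The step between zygote and 48 h was tested in each genotype. In controls 6 of 9 genes were lower at 48 h than in zygotes and 1, Tet1, was higher, where 33.4% of all genes were called higher, 42.7% lower and 76.1% in either direction, and their median was -0.34. The falls were -4.58 ± 0.27 for Tet3, -4.41 ± 0.32 for Uhrf1, -3.15 ± 0.24 for Dnmt1, -2.18 ± 0.24 for Dnmt3l, -1.92 ± 0.27 for Dnmt3a and -1.33 ± 0.33 for Dnmt3b on the log2 scale (limma, adjusted p at most 0.00347). Relative to the median these were -4.24, -4.07, -2.81, -1.84, -1.58 and -0.995. Tet1 rose by 1.93 ± 0.23, or 2.27 relative to the median (limma, adjusted p = 1.5e-05). Rescaling gave 4743 calls higher and 4602 lower over all genes in this control step, against 4080 higher and 5205 lower as deposited. In the knockout none of the 9 genes was called between zygote and 48 h (limma, adjusted p from 0.637 to 0.981, 0 at an unadjusted p under 0.05), where 0.205% of all genes were called and 10.2% had an unadjusted p under 0.05.

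The difference between the knockout effects at 48 h and in zygotes was tested directly. It equals the knockout step minus the control step from zygote to 48 h, so it is not separate from those steps. The 48 h embryos were 1-cell in the knockout and 2-cell in the control, so genotype and cell stage cannot be told apart in this difference either. The effect of Tet3, Uhrf1, Dnmt1, Dnmt3l and Dnmt3a lay higher at 48 h, by 4.28 ± 0.39, 4.27 ± 0.45, 3.55 ± 0.35, 2.23 ± 0.33 and 1.80 ± 0.39 on the log2 scale, and that of Tet1 lower, by -1.81 ± 0.32 (limma, adjusted p at most 0.00174). For Dnmt3a the effect was 0.81 at 48 h and -0.99 in zygotes, but neither call was kept with each library left out in turn. After rescaling the 48 h effect was 0.36 and not called, so a change of sign is not secure. Dnmt3a averaged 30.8 FPKM in control zygotes and 7.09 FPKM in the 48 h control, against 14.4 and 13.2 FPKM in the knockout. For the difference itself, 5 of 9 genes were called higher and 1 lower. Over all genes 36.7% were called higher, 29.5% lower and 66.2% in either direction. With rescaling the calls over all genes were 3924 higher and 4255 lower, against 4480 higher and 3599 lower as deposited. Relative to the median of all genes, 0.36, the same differences were 3.92, 3.91, 3.19, 1.87, 1.44 and -2.17 in that order. The 6 genes kept their calls with any library left out, save that Tet1 fell under the filter for testing without either 48 h control library.

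In spindle-transfer 8-cell embryos 0 of 7 tested genes were called (limma, adjusted p from 0.229 to 0.958, 1 at an unadjusted p under 0.05). Tet3, Tdg and Mbd1 were too low to test. Over all 9398 genes limma called 0%, and 13.2% had an unadjusted p under 0.05. Dnmt3l had 56.7 and 80.1 FPKM in the knockout, against 23.5 and 35.9 FPKM in the control. The groups did not overlap, and the difference of 1.18 ± 0.29 (log2) did not pass (limma, adjusted p = 0.229). Tet2, the leading TET gene at this stage, had 35.5 and 28.9 FPKM in the knockout and 21.2 and 22.5 FPKM in the control, also without overlap. In all, Dnmt1, Dnmt3b, Dnmt3l and Tet2 lay wholly higher in the knockout, as did 18.7% of all genes, and none lay wholly lower, against 27.3% of all genes. Dnmt1 had 4.13 and 3.91 FPKM in the knockout, against 0.610 and 3.39 FPKM in the control. Oocyte markers summed to 56.0 to 69.5 FPKM in the knockout and 24.4 to 36.4 FPKM in the control, with Gdf9 at 0 in both control libraries, and markers of cleavage and 8-cell embryos to 361 to 386 FPKM in the knockout and 435 to 509 FPKM in the control. Markers of 2-cell embryos summed to 8.28 to 20.6 FPKM in the knockout and 9.29 to 104 FPKM in the control, so the control libraries lay far apart, and the part of these markers in the differences was not tested. For Dnmt1 the control libraries were farther from each other than the second was from the knockout.

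In the Dnmt3l pair only Dnmt1, Dnmt3a, Dnmt3l, Uhrf1 and Tet3 had 5 FPKM in the higher library. None of them passed 2-fold, where 1.4% of the 6015 genes at that floor did, so the result says little about the set. Dnmt3l had 25.0 FPKM in the library labelled knockout and 31.7 FPKM in the control, a ratio of 0.788, so the FPKM of the whole gene does not check the deletion. Dnmt1 had 61.4 FPKM in the library labelled knockout and 88.8 FPKM in the control, and Uhrf1 had 123 FPKM in the library labelled knockout and 149 FPKM in the control. Tet3 had 49.8 FPKM in the library labelled knockout and 55.4 FPKM in the control. Dnmt3b lay the other way, at 1.42 FPKM in the library labelled knockout and 0.681 FPKM in the control, as did Mbd1, at 0.511 FPKM in the library labelled knockout and 0.322 FPKM in the control, both under the 5 FPKM floor. With 1 library each, these differences have no replicate check. Granulosa markers summed to 26.0 FPKM in the library labelled knockout and 80.2 FPKM in the control, and their part was not tested.

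The other genes of the pathway were taken as 54 genes in 5 lists: partners of methylation, methyl-CpG readers, demethylation and base excision, TET partners and the methyl donor cycle. In growing oocytes and in 8-cell embryos none of 47 and 38 tested genes was called. The share called over all genes was 0.0834% in growing oocytes and 0% in 8-cell embryos, so this says little about the pathway genes. In full-grown oocytes 3 of 48 were lower in the knockout and none higher: Parp1, the main enzyme of poly-ADP-ribosylation in repair, Mat1a, a methionine adenosyltransferase, and Mthfd1, an enzyme of folate metabolism. Over all genes 4.89% were lower and 2.02% higher, so the share is near the background. Mat1a averaged 6.22 ± 0.65 FPKM in the knockout and 21.0 ± 0.70 FPKM in the control (SD, n = 2 each), and limma gave a log2 change of -1.61 ± 0.35, or -1.42 relative to the median of all genes, and an adjusted p of 0.0255. Each of these 3 calls was lost whichever library was left out.

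In zygotes 6 of 48 pathway genes were higher and 4 lower in the knockout, with 31.6% of all genes called. Xrcc1, a scaffold of base excision repair, stood highest over the control among them. It averaged 64.3 ± 15.5 FPKM in the knockout and 4.28 ± 2.69 FPKM in the control (SD, n = 2 each, log2 change 3.71 ± 0.39, limma adjusted p = 0.000137). Apex1, which cuts at abasic sites, averaged 57.2 ± 20.5 FPKM in the knockout and 19.4 ± 1.90 FPKM in the control (1.47 ± 0.25, limma adjusted p = 0.00177). Gadd45g, of a stress-response family linked to demethylation, averaged 0.312 ± 0.013 FPKM in the knockout and 5.21 ± 0.60 FPKM in the control (-2.24 ± 0.23, limma adjusted p = 0.000112). Those 3 calls were kept with each library left out. Mat2a, Gadd45b, Idh3a and Ogt were higher and Hells, Zbtb33 and Mat2b lower, and each of these 7 calls was lost with at least 1 library left out.

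At 48 h 22 of 48 pathway genes were higher and 13 lower in the knockout, near the 43.2% higher and 30.6% lower over all genes. The median change of the pathway genes was 0.26, against 0.43 for all genes. Zfp57, a zinc-finger protein that protects imprints, averaged 1646 ± 83.3 FPKM in the knockout and 129 ± 13.4 FPKM in the control (log2 change 3.67 ± 0.17, 3.24 relative to the median, limma adjusted p = 1.7e-08). Kdm1b, a histone demethylase required for maternal imprints in mouse oocytes, averaged 42.7 ± 2.63 FPKM in the knockout and 4.501 ± 1.10 FPKM in the control (3.002 ± 0.27, 2.57 relative to the median, limma adjusted p = 1.8e-06). Neil3, a DNA glycosylase, averaged 183.6 ± 75.9 FPKM in the knockout and 1.53 ± 0.45 FPKM in the control (6.14 ± 0.29, 5.71 relative to the median, limma adjusted p = 1.6e-08). Idh2, which makes the TET cosubstrate alpha-ketoglutarate, was lower, at 0.192 ± 0.093 FPKM in the knockout and 28.5 ± 4.22 FPKM in the control (-4.62 ± 0.26, -5.05 relative to the median, limma adjusted p = 5.7e-08). Bhmt, which remethylates homocysteine, was listed at 0 in both knockout libraries and averaged 35.5 ± 5.27 FPKM in the control.

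By list, 4 of 12 methylation partners were higher and 3 lower at 48 h, 6 of 13 demethylation and repair genes higher and 5 lower, 2 of 5 TET partners higher and 1 lower, and 6 of 12 methyl donor genes higher and 4 lower, beside 43.2% higher and 30.6% lower over all genes. Median log2 changes were -0.25 for methylation partners and -0.27 for demethylation and repair genes, against 0.43 for all genes. They were 0.42 for TET partners, 0.64 for methyl donor genes and 0.70 for methyl-CpG readers. The 3 lower partners were not among the 4 with the smallest adjusted p and are not named here. Smug1, a uracil glycosylase, averaged 16.8 ± 2.13 FPKM in the knockout and 0.533 ± 0.16 FPKM in the control. Parp1 was lower, at 2.82 ± 0.31 FPKM in the knockout and 31.0 ± 1.13 FPKM in the control, and Xrcc1 again higher, at 63.4 ± 7.23 FPKM in the knockout and 6.21 ± 1.17 FPKM in the control (limma adjusted p at most 2.4e-05 for these 3). Cdca7l, Trdmt1, Idh3a, Idh1 and Mat2b were higher and Mtrr lower, and these calls were kept with each library left out. Of 7 methyl-CpG readers 4 were higher and none lower, among them Mbd2, Zbtb33 and Mbd5, with log2 changes of 0.70, 0.96 and 0.86, or 0.27, 0.53 and 0.43 relative to the median. Each of these 3 calls was lost with 2 of the 4 libraries left out in turn, and those of Mbd2 and Mbd5 after rescaling (limma adjusted p = 0.104 and 0.150).

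In controls 14 of 48 pathway genes were higher and 22 lower at 48 h than in zygotes, near the 33.4% higher and 42.7% lower over all genes. Zfp57 averaged 129 ± 13.4 FPKM at 48 h and 2253 ± 202 FPKM in zygotes (log2 change -4.12 ± 0.17, -3.78 relative to the median, limma adjusted p = 7.8e-09). Uhrf2, the paralogue of Uhrf1, was higher at 48 h, at 3.69 ± 0.30 FPKM, against 0.0436 ± 0.062 FPKM in zygotes (2.17 ± 0.25, 2.51 relative to the median, limma adjusted p = 1.2e-05). In the knockout the same step gave 0 higher and 1 lower, where 0.205% of all genes were called. The lower gene was Cxxc5, a CXXC zinc-finger protein, at 0.276 ± 0.126 FPKM at 48 h and 1.59 ± 0.25 FPKM in zygotes (limma adjusted p = 0.0451). The Cxxc5 call was lost with any library left out.

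Across the 12 libraries of full-grown oocytes, zygotes and 48 h embryos, Dnmt1 followed Dnmt3l and Uhrf1 on the log2(FPKM + 1) scale, with Pearson's r of 0.955 and 0.936. Uhrf1 and Tet3 gave r = 0.906. Of 6499 genes compared, the most like Dnmt1 were Paox (r = 0.989), Rph3al and Pstpip1. Those most like Dnmt3l were Daglb (r = 0.994), Cd177 and Abcf3, and those most like Uhrf1 were Csad (r = 0.992), Dclk2 and Tbx4. For Tet3 they were Chsy1 (r = 0.991), Zcchc3 and Tcaim, and for Dnmt3b Ssr3 (r = 0.955), Ube2h and Galnt1. The 12 libraries share a table and 6 groups, and the 48 h control had the lowest mean of each of these 5 genes, so r describes likeness only.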

How the data were processed

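RNA from 22 Smart-seq2 libraries was analysed, with groups taken from titles and column names. The authors deposited FPKM per gene symbol in 4 tables, and TopHat2 2.0.11, Cufflinks 2.0.2 and mm9 are named, with no role for each, in the submitters' processing notes. FPKM per gene cannot separate isoforms, strands or near-identical copies. Values were transformed as log2(FPKM + 1), and limma 3.58.1 (R 4.3.3; trend on mean level) was fitted within each table to genes that reached 1 FPKM in 2 or more of its libraries. The 12 libraries of full-grown oocytes, zygotes and 48 h embryos were fitted together. The p-values are two-sided, adjusted by Benjamini-Hochberg over all genes, and called at 0.05. An exact permutation test of 2 against 2 libraries cannot go below 0.33. Fragment numbers rest on taking the commonest low product of FPKM and transcript length, in genes with a single transcript, as 1 fragment. That assumption was not tested. By these estimates the lowest values rest on few fragments. The fit was tested on simulated data.

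The 10 genes and the lists were chosen with earlier results of these data known. All 10 are reported. Of each list, up to 4 called genes with the smallest adjusted p per comparison are named for the knockout comparisons, apart from some not reported here, and fewer for the steps between stages. For likeness, the 3 genes with the highest Pearson correlation and a mean of at least 5 FPKM were named. Other pseudocounts, filters, scalings, a replicate block and leave-one-out fits were tried. Promoters are RefSeq sequences of GRCm38.p6 matched by symbol, a build other than that of the FPKM tables. Protein sequences were not used here.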

Additional observations from a re-analysis of the deposited data

Results flagged for a closer look

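For 6 genes the knockout effect differed between 48 h and zygotes by a direct test of the difference (limma, Benjamini-Hochberg over all genes, log2 scale). The difference was 4.27 for Uhrf1 (adjusted p = 1.2e-05) and 4.28 for Tet3 (adjusted p = 4.2e-06 by limma). It was 3.55 for Dnmt1 (limma adjusted p = 7.0e-06), 2.23 for Dnmt3l (limma adjusted p = 0.000151) and 1.80 for Dnmt3a (limma adjusted p = 0.00174). Tet1 differed in the opposite direction, by -1.81 (limma adjusted p = 0.000542). The knockout embryos at 48 h were 1-cell and the control embryos 2-cell, so genotype and cell stage cannot be told apart in these values. Each difference equals the knockout step minus the control step from zygote to 48 h, so it is not separate from those steps.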

How the results depend on the processing

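Of 35 calls among the 10 genes, 24 were kept under every setting and with every library left out in which the gene could be tested; Tet1 could not be tested without either 48 h control library. Most of the calls kept lay in comparisons that use the 48 h control libraries. Those comparisons share libraries, so their calls are not independent of each other. No followed change reversed. In full-grown oocytes the 2 knockout calls became 1 with a pseudocount of 0.1, 0 without a filter on low values, 0 after rescaling, 0 with the replicate block, 4 with the compared groups alone and 0 to 0 with a library left out. In the knockout step from full-grown oocyte to zygote the 4 calls became 1 to 3 with a library left out, and the difference of knockout effects between these stages gave 0 to 1.

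Over all genes, calls at P7 were 9, and 0 without a filter, 129 with the replicate block and 5 to 16 with a library left out. In full-grown oocytes the 844 calls became 489, 500 and 2787 with the pseudocount, without a filter and with the compared groups alone, and 43 to 145 with a library left out. With a library left out, the knockout calls in zygotes were 2256 to 3935 where 3850 were called with all. In 8-cell embryos the 0 calls became 15 with the replicate block and 0 to 49 with a library left out. For the step from full-grown oocyte to zygote, the range with a library left out was 3146 to 4322 in controls and 313 to 2885 in the knockout. For the knockout step to 48 h, 25 calls became 40 without a filter, 5 with the compared groups alone and 11 to 172 with a library left out. The difference of effects between zygotes and full-grown oocytes gave 1145, or 603 without a filter and 320 to 1964 with a library left out. In the Dnmt3l pair 84 genes passed 2-fold, and 189 with a floor of 1 FPKM.

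Same-numbered libraries deviated together with r between -0.131 and 0.2, and the labels do not tie a number to a shared source, so the libraries were not taken as paired. With the replicate block Dnmt1 and Mbd1 in full-grown oocytes both had an adjusted p of 0.0563 (limma). The crossed pairing for the control step from full-grown oocyte to zygote gave 5393 calls over all genes and 4 among the 10. Among the values that took part in calls, Mbd1 rested on about 1.4 fragments in a knockout full-grown oocyte library and 2.87 in a 48 h knockout library, and Tet2 on 7.99 in a control zygote library. In growing oocytes Tet1 and Dnmt3l had under 1 fragment in 3 and 4 of the 4 libraries and were not tested.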
